A study of Mus musculus with 12 samples.

Results

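The TRIM (tripartite motif) family of ubiquitin ligases was followed in sorted glioma cells of a pair of mouse tumor lines. Members were the genes whose array symbol was Trim and a digit and whose probe set was paired with that symbol alone, and 58 of the 19938 genes tested met this rule. RNA had been measured in ZsGreen-tagged tumor cells of 12 FVB mice, 6 with pEGFR-Hi and 6 with pEGFR-Lo tumors, on 1 Affymetrix Mouse Gene 1.0 ST array per mouse. Both lines were derived from subventricular zone neural progenitor cells of Ink4a/Arf null mice after transduction with human EGFRvIII, a constitutively active, truncated EGF receptor, and they differ in how strongly that receptor is phosphorylated. Each mouse had received an intracranial injection of 2 µl with 200000 cells per µl. Each group was 1 line in 6 mice, so p-values describe the spread among mice and not among lines. Brains were taken near the median survival of each group, so line and time since injection cannot be told apart. Ages of the mice were not given in the sources used here.

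TRIM proteins carry a RING finger, 1 or more B-boxes and a coiled coil, and most of them act as ubiquitin ligases through the RING. They differ in the domain at the C-terminal end, which binds substrates or anchors the protein. A number of them are induced by interferon and restrict viruses or tune the sensors that detect them, while others serve chromatin repression, the cytoskeleton or protein turnover in most cells. In the mouse, Trim30a lies in a cluster of related genes on chromosome 7, next to Trim12a, Trim12c, Trim34a, Trim30d and Trim6. Members were therefore read in groups written from textbook knowledge. These were the Trim30 cluster, interferon-linked members at other loci, members that most cells use (called constitutive here), members known from neurons, and members known from other tissues such as muscle (tissue-restricted). They held 6, 6, 22, 4 and 18 measured members, and Trim8 and the pseudogene Trim30e-ps1 belonged to none.

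The promoters of the cluster are shown first because it held 4 of the 7 members that passed the test, Trim30a with the largest difference among them. RefSeq windows of GRCm38.p6, from 250 bases before to 50 bases after each gene start, were at hand for 45 of the 58 members. They were searched on both strands for GAAANNGAAA, the core letters of the interferon-stimulated response element (ISRE), to which complexes of STAT and IRF factors bind. The letters occurred in 5 of 6 cluster genes (83.3%), in 2 of 5 interferon-linked members at other loci, and in 1 of 34 other members (2.94%), against 3.99% of the 27025 genes with a window. Trim14 had no window. In a list of interferon-stimulated genes described below, 8 of 22 with a window (36.4%) held the letters. The sequences below run 5′ to 3′ on the strand of the gene, with the match in capitals. On the strand shown, GAAANNGAAA read from the opposite strand appears as TTTCNNTTTC.
Trim30a, chr7:104465195-104465254, minus strand: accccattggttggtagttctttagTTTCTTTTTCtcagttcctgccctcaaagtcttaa
Trim30d, chr7:104507856-104507915, minus strand: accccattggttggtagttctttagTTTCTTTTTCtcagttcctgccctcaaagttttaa
Trim12c, chr7:104353344-104353403, minus strand: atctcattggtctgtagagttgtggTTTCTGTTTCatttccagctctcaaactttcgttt
Trim12a, chr7:104315466-104315525, minus strand: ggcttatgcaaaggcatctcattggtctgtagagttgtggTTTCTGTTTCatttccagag
Trim34a, chr7:104244427-104244486, plus strand: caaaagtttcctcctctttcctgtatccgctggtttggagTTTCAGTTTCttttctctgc
Trim21, chr7:102565453-102565512, minus strand: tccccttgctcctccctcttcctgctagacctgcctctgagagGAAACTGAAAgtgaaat
Trim26, chr17:36836961-36837020, plus strand: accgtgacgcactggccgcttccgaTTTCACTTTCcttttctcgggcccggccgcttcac

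At the Trim30a start shown the match lay 36 to 27 bases before it, a further RefSeq start of this gene had a match just after it, and in Trim30d it lay 41 to 32 bases before it. The whole windows of these paralogs were 92.3% identical, and those of Trim12a and Trim12c 82.3%, whereas the other pairs among Trim30a, Trim30d, Trim12a, Trim12c, Trim34a and Trim21 shared 48.3% to 58.3%. The matches in the cluster are therefore not all independent of each other, the similar pairs being Trim30a with Trim30d and Trim12a with Trim12c. In Trim12a, Trim34a and Trim21 the match shown lay after the gene start, and in Trim12c and Trim26 before it. In Trim21 and Trim26 a further match overlapped the one in capitals, so that both held the longer letters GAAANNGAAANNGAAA, which occurred in 0.133% of all genes with a window. The 250 bases before the Trim30a start are given whole because this gene had the largest difference of the family.
Trim30a, chr7:104465194-104465443, minus strand: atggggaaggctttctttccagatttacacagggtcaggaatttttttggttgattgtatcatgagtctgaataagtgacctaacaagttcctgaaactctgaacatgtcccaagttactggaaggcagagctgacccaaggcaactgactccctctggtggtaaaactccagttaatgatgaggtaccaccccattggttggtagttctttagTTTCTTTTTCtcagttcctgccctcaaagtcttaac

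Values are log2 intensities after RMA, the authors' normalization, which forces the same distribution on each array and so hides any change in the total RNA per cell. A level is given for a gene only against itself, since levels of different probe sets cannot be compared. As background, 95% of 1027 olfactory receptor genes had a mean below 4.10, and 37 of the 58 members had a group mean above this level. A gene was called when limma gave an adjusted p (Benjamini-Hochberg) below 0.01 and the groups differed 2-fold or more. In bulk RNA, fewer cells of a type and less RNA per cell cannot be told apart.

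All 7 neural progenitor and glioma markers, such as Sox2, Olig2 and Nes, had both group means above background. Some markers of other cells, such as Mbp and Cd3e, did so too, so this does not separate tumor cells from others. Between the groups, 0 of the 7 passed the limits of the call with limma or SAM, and 4 had an unadjusted p under 0.05. Sox2 was toward pEGFR-Hi (0.51, limma adjusted p = 4.50e-04). Olig1 (-0.65, limma adjusted p = 2.03e-04) and Pdgfra (-0.98, limma adjusted p = 1.35e-05) were toward pEGFR-Lo. Markers of other cells were given as summed linear levels per mouse. Those of microglia and macrophages were 248 to 317 in pEGFR-Hi and 260 to 347 in pEGFR-Lo, with Csf1r, Aif1, Ptprc and Itgam not above background, Cd68 called higher in pEGFR-Hi and P2ry12 in pEGFR-Lo. Those of lymphocytes and NK cells were 85.5 to 103 and 87.1 to 104, and none of these 7 genes had even an unadjusted p under 0.05. The pEGFR-Lo group had the higher range for neuronal markers (107 to 127 against 91.1 to 105), of which 0 were called with limma and with SAM (3 had an unadjusted p below 0.05) and the median log2 difference was -0.13. For endothelial and mural markers its range was also higher (140 to 538 against 91.9 to 120), but of the 7 genes Rgs5 alone was called, Pecam1, Cdh5, Tek and Pdgfrb were not above background, and the median difference was -0.02. The pEGFR-Hi group had the higher range for astrocyte markers (799 to 1304 against 417 to 776), in which Gfap was called toward pEGFR-Hi (1.43), Slc1a2 toward pEGFR-Lo (-2.70), and the median difference was -0.01. The part of these other cells in the differences below was not tested.

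A pair of pEGFR-Lo mice stood apart. Over 29 interferon-stimulated genes, none of them a TRIM gene, the mean log2 value ranged from 8.11 to 9.07 across pEGFR-Hi mice. It was 5.77 in pEGFR-Lo replicate 3 and 5.67 in replicate 6, whereas the remaining 4 mice of that group ran from 7.05 to 7.47. In 26 of the 29 genes these were the 2 lowest pEGFR-Lo arrays, against 6.78% of all genes tested. The pair was chosen after seeing the data and is described here by the same genes, so this count is not separate support. Results for TRIM members are also given without this pair.

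Of the 58 members, 7 were higher in pEGFR-Hi (12.1%, against 3.99% of all genes tested), and 51 passed in neither direction. Toward pEGFR-Lo, 0 members were called with limma or with SAM (background 5.06%). An unadjusted p under 0.05 in that direction was reached by 7 of the 58, against 3945 of the 19938 genes tested. The called members were Trim30a, Trim12c, Trim34a and Trim30d of the cluster, Trim14 among interferon-linked members elsewhere, and Trim47 and Trim59 among constitutive ones. The median difference over all members was 0.11 on the log2 scale, against 0.01 over all genes tested. The arrays of the groups did not overlap in 13 of the 58 members toward pEGFR-Hi, beside 12.2% of all genes tested. Toward pEGFR-Lo they did not overlap in 4 of the 58, beside 11.1%. At an adjusted p under 0.05 with no limit on fold, 20 members were higher in pEGFR-Hi (34.5%, background 19.4%) and 7 in pEGFR-Lo (12.1%, background 16.6%). Without pEGFR-Lo replicates 3 and 6 the same 7 members were called toward pEGFR-Hi (background 3.7%) and 0 toward pEGFR-Lo (background 4.89%). At an adjusted p under 0.05 with no limit on fold, 20 passed toward pEGFR-Hi and 4 toward pEGFR-Lo without the pair, with Trim24, Trim62 and Trim66 lost. The share of all genes at that limit without the pair was not worked out, so these counts have no background beside them.

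**Figure D1:**
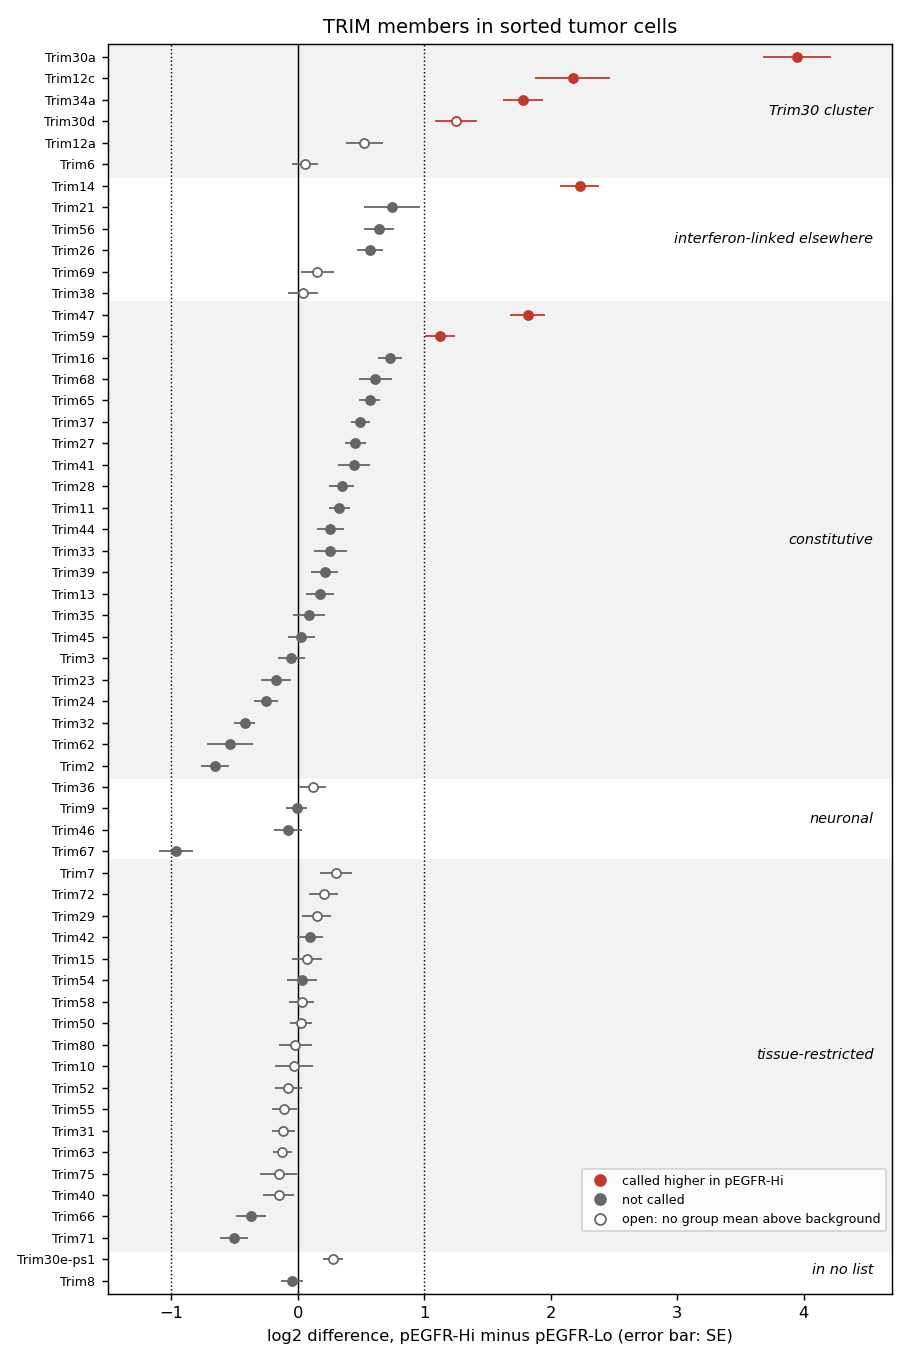
Difference between pEGFR-Hi and pEGFR-Lo on the log2 scale (x axis) for each of the 58 TRIM members (y axis), with the limma standard error as bar, dotted lines at 2-fold, red points for called members and open points where no group mean was above background. The cluster spans 0.06 to 3.95, and the tissue-restricted members stay within -0.51 and 0.30.

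The Trim30 cluster held 4 of the 7 called members, out of 6 measured of 11 listed, and its median difference was 1.52. Trim30a, which restrains Toll-like receptor signaling by degrading the adaptors TAB2 and TAB3, had log2 values of 9.14, 9.54 and 9.96 (lowest, median and highest) in pEGFR-Hi and of 4.76, 5.65 and 6.51 in pEGFR-Lo. Every pEGFR-Hi mouse lay above every pEGFR-Lo mouse, by more than the whole range within either group, and pEGFR-Lo replicates 3 and 6 were the lowest at 4.76 and 4.91. The group means were 9.57 ± 0.29 and 5.62 ± 0.73 (n = 6 mice each, ± SD), which is 15.4-fold with a log2 SE of 0.27 (limma adjusted p = 7.76e-09). Without replicates 3 and 6 the log2 difference was 3.55.

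Trim12c, a relative of the human retroviral restriction factor TRIM5, had values of 6.32, 6.68 and 7.21 in pEGFR-Hi and of 3.47, 4.77 and 5.45 in pEGFR-Lo. The groups did not overlap, and pEGFR-Lo replicates 3 and 6, at 3.63 and 3.47, fell below background while the other 4 mice of that group did not. By group means Trim12c was 4.51-fold higher in pEGFR-Hi (log2 SE 0.30, limma adjusted p = 2.09e-05), and the log2 difference of 2.17 became 1.68 without the pair. Trim34a, an interferon-responsive gene beside Trim6, ran from 6.37 to 7.29 (median 6.81) in pEGFR-Hi and from 4.47 to 5.29 (median 5.13) in pEGFR-Lo. Its groups were separated by more than 1 log2 unit and all its pEGFR-Lo mice were above background, and it was 3.44-fold higher in pEGFR-Hi (log2 SE 0.16, limma adjusted p = 1.79e-07).

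Trim30d, whose promoter window was the closest to that of Trim30a among those compared, was dim. Its values were 3.61, 3.998 and 4.78 in pEGFR-Hi and 2.46, 2.83 and 2.97 in pEGFR-Lo, so that 2 of 6 pEGFR-Hi mice (replicates 3 and 5) and 0 of 6 pEGFR-Lo mice exceeded background. The groups did not overlap and the log2 difference of 1.25 passed the limits (SE 0.17, limma adjusted p = 1.51e-05), but no fold is given because neither group mean was above background. The other measured genes of the cluster were not called. Trim12a, which lacks the C-terminal domain of Trim12c, stayed below background in all mice with a log2 difference of 0.53 (limma adjusted p = 0.00889), and Trim6, which synthesizes unanchored ubiquitin chains, did so with a difference of 0.06 (limma adjusted p = 0.742). Whether probes of Trim30a and Trim30d, or of Trim12a and Trim12c, also bind the RNA of the other paralog was not tested.

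**Figure D2:**
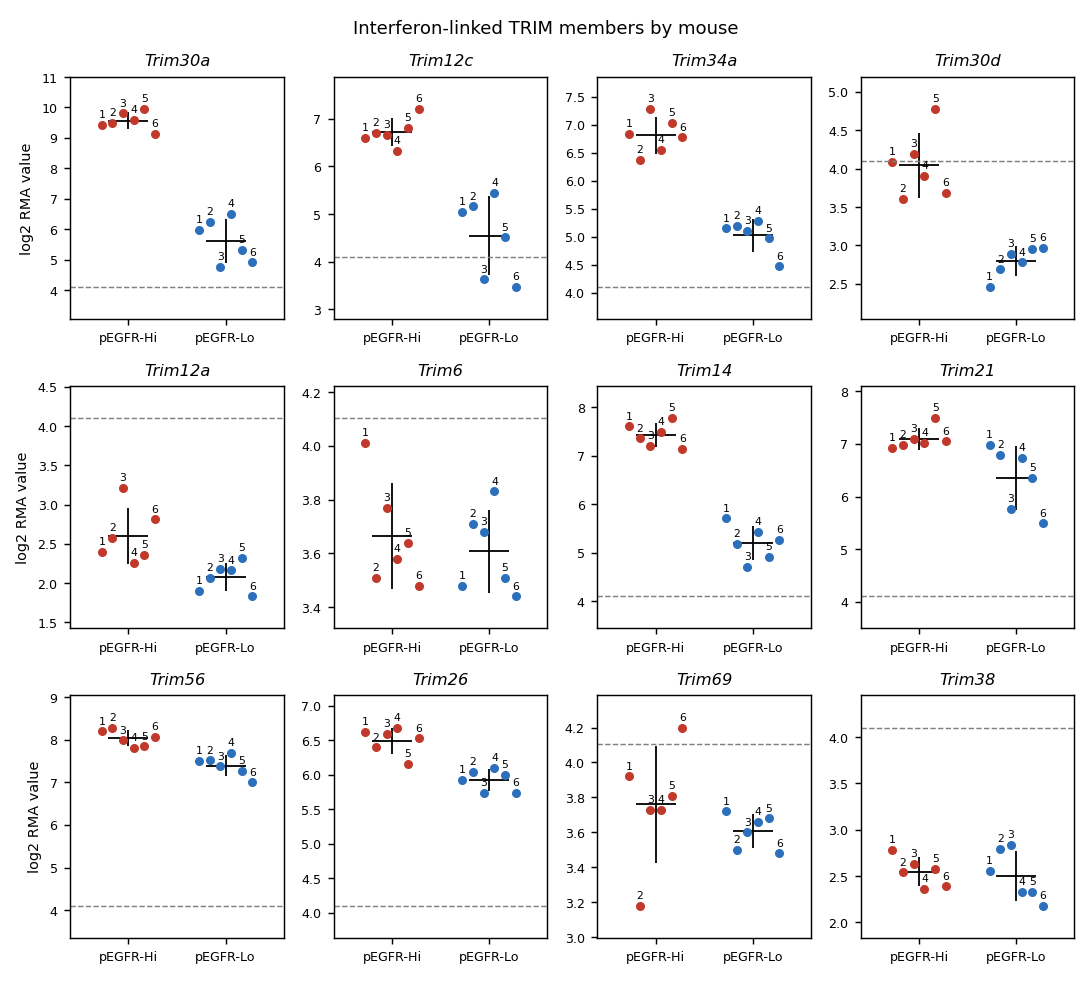
Log2 RMA values (y axis, scaled per panel) of the 12 interferon-linked members in each pEGFR-Hi (red) and pEGFR-Lo (blue) mouse with its replicate number, bars for mean and SD, and a dashed line at the background level of 4.10. Trim30a, Trim12c, Trim34a and Trim14 are separated by group and mostly above background, while Trim12a, Trim6 and Trim38 lie below it in every mouse.

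Genes beside the cluster were also read. The 20 measured genes nearest to it, 10 on each side and 17 of them olfactory receptor genes, differed by -0.28 to 0.25 with a median of -0.03. Of these, 0 were called with limma or SAM and 3 had an unadjusted p under 0.05, and the group means were below background apart from that of Olfr656 in pEGFR-Lo. The pseudogene Trim30e-ps1, at the far end of the cluster and chosen here after its values were seen, had a log2 difference of 0.28 with all 12 arrays below background (limma adjusted p = 0.0129).

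Outside the cluster, all 6 listed interferon-linked members were measured, 1 was called, and the median difference was 0.61. Trim14, a mitochondrial adaptor of the RIG-I pathway that has no RING, had values of 7.14, 7.43 and 7.78 in pEGFR-Hi and of 4.71, 5.23 and 5.71 in pEGFR-Lo. The groups were more than 1 log2 unit apart, and replicates 3 and 6 were not the lowest pair of their group. Trim14 was 4.69-fold higher in pEGFR-Hi (log2 SE 0.15, limma adjusted p = 1.14e-08), and the log2 difference was 2.12 without the pair.

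Trim21, the cytosolic receptor for antibody-coated viruses, had values of 6.93, 7.04 and 7.49 in pEGFR-Hi and of 5.49, 6.55 and 6.98 in pEGFR-Lo. The groups overlapped, and the low pEGFR-Lo values were those of replicates 3 and 6, at 5.76 and 5.49. The log2 difference of 0.74 missed the limits (limma adjusted p = 0.0136) and was 0.38 without this pair. Trim56, an antiviral ligase that acts on STING signaling, and Trim26, which is encoded beside the major histocompatibility complex, did not overlap between groups, with log2 differences of 0.64 (limma adjusted p = 4.11e-04) and 0.57 (limma adjusted p = 2.56e-04), both under 2-fold. Trim38, a regulator of Toll-like receptor signaling, and Trim69, a microtubule-bound ligase, were not above background by either group mean and differed by 0.04 and 0.16.

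Over the 12 interferon-linked members as a whole, 5 were higher in pEGFR-Hi, the differences of all 12 were above 0, and the median was 0.69. Over the 46 other members, 2 were called (4.35%, beside the 3.99% of all genes tested) and the median was 0.03. In 5 of the 12, the called Trim30d among them, neither group mean was above background.

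Among the 22 constitutive members, all of them above background, 2 were called (9.09%, beside 9.05% of all genes tested in either direction), both higher in pEGFR-Hi, and the median difference was 0.26. Trim47, first described as overexpressed in astrocytoma, had values of 6.58, 7.17 and 7.51 in pEGFR-Hi and of 5.08, 5.19 and 5.56 in pEGFR-Lo. The groups were 1 log2 unit apart at their nearest mice, and pEGFR-Lo replicate 3 was the lowest and replicate 6 the highest of its group. Trim47 was 3.52-fold higher in pEGFR-Hi (log2 SE 0.14, limma adjusted p = 3.62e-08). Trim59, a ligase anchored in the endoplasmic reticulum membrane, ran from 8.34 to 8.76 (median 8.51) in pEGFR-Hi and from 7.12 to 7.84 (median 7.35) in pEGFR-Lo. Its groups did not overlap and it was 2.18-fold higher in pEGFR-Hi (log2 SE 0.12, limma adjusted p = 1.32e-06). Without pEGFR-Lo replicates 3 and 6 the log2 differences of these genes were 1.84 and 1.18.

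The remaining constitutive members differed by under 2-fold. Trim16, which serves the oxidative stress response, differed by 0.73 (limma adjusted p = 1.23e-05) and Trim37, which limits centriole assembly, by 0.50 (limma adjusted p = 8.68e-05), and neither overlapped between groups. Trim27, a ligase of endosomal recycling, differed by 0.46 (limma adjusted p = 4.25e-04). Trim28, the corepressor of KRAB zinc finger proteins, differed by 0.35 (limma adjusted p = 0.0107), and Trim44, which lacks a RING, by 0.26 (limma adjusted p = 0.0763). At an adjusted p under 0.05 with no limit on fold, 10 of the 22 were toward pEGFR-Hi and 4 toward pEGFR-Lo (Trim2, Trim62, Trim32 and Trim24, the last named after its values were seen), against 19.4% and 16.6% of all genes, and the differences of 16 were above 0 and of 6 below 0. Toward pEGFR-Lo the largest were those of Trim2, which ubiquitinates neurofilament light chain, at -0.66 (limma adjusted p = 2.04e-04), of Trim62 at -0.53 (limma adjusted p = 0.0319), and of Trim32, a ligase of muscle and of neural progenitor fate, at -0.42 (limma adjusted p = 7.92e-04). Without pEGFR-Lo replicates 3 and 6, Trim62 (-0.39, limma adjusted p = 0.164) and Trim24 (-0.18, limma adjusted p = 0.205) no longer passed, which left 10 and 2. No share of all genes was worked out for this setting.

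**Figure D3:**
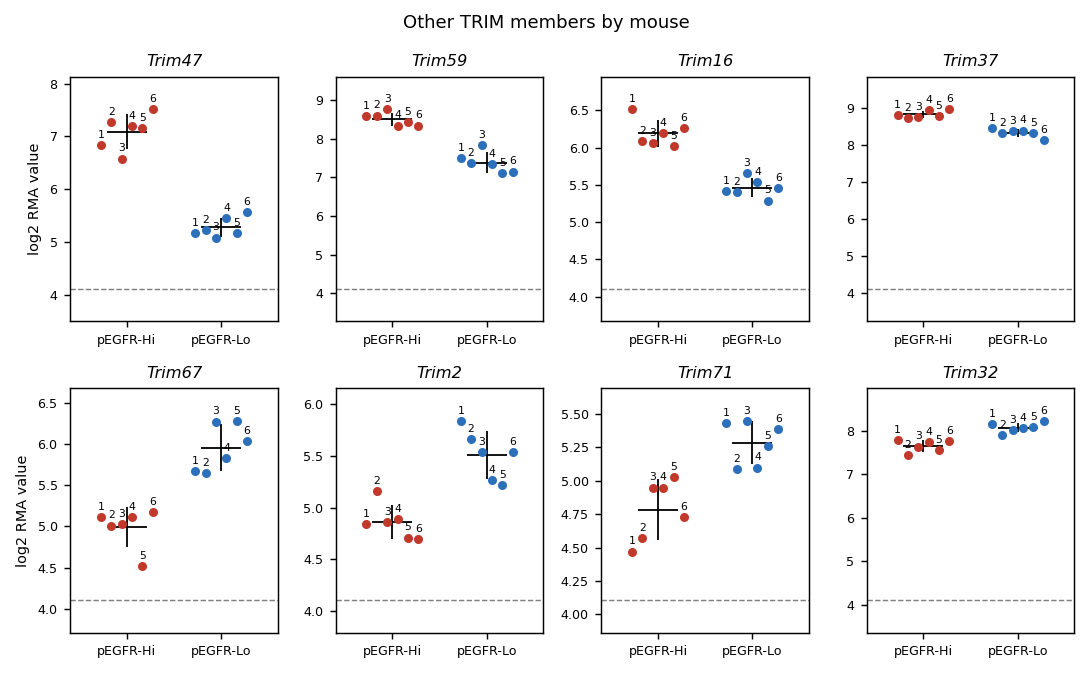
Log2 RMA values (y axis, scaled per panel) of 8 members outside the interferon-linked lists in each pEGFR-Hi (red) and pEGFR-Lo (blue) mouse with its replicate number, bars for mean and SD, and a dashed line at the background level of 4.10. Trim47, Trim59, Trim16 and Trim37 are higher in all pEGFR-Hi mice, and Trim67, Trim2, Trim71 and Trim32 are higher in all pEGFR-Lo mice, with Trim47 and Trim59 past 2-fold.

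Grouped by C-terminal domain, the 4 members with NHL repeats, Trim2, Trim3, Trim32 and Trim71, all had differences below 0, with a median of -0.46. Of these, 0 were called with limma or SAM, and 3 had an adjusted p under 0.05 toward pEGFR-Lo (background 16.6%). Trim71, the Lin41 ligase of embryonic stem cells, did not overlap between groups, running over 4.47, 4.84 and 5.03 in pEGFR-Hi and over 5.09, 5.33 and 5.45 in pEGFR-Lo (difference -0.51, limma adjusted p = 0.0016). Trim3 was named for its domain after its values were seen, and its difference was -0.05 (limma adjusted p = 0.782). The 4 members with a PHD finger and bromodomain, which read histone marks, had a median of 0.00, and Trim66 of this group differed by -0.37 (limma adjusted p = 0.0194, not under 0.05 without pEGFR-Lo replicates 3 and 6). The largest group, 24 members listed here under a PRY-SPRY domain, had a median of 0.26. Of these, 4 were called toward pEGFR-Hi (16.7%, background 3.99%), namely the called members of the Trim30 cluster. The called members Trim14 and Trim47 were given no domain in this grouping. The counts therefore describe the list used and not every member with such a domain.

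Of the 4 members known from neurons, 0 passed the limits of the call with limma or SAM, and 1 had an unadjusted p under 0.05. Trim67, which binds the netrin receptor DCC in developing axons, had values of 4.52, 5.07 and 5.17 in pEGFR-Hi and of 5.65, 5.93 and 6.28 in pEGFR-Lo. The groups did not overlap, and the means differed 1.95-fold toward pEGFR-Lo (log2 difference -0.96, SE 0.14, limma adjusted p = 3.03e-05), which is just short of the 2-fold limit. It passed when pEGFR-Lo replicate 1 or 2 was left out, at -1.02 each. The 6 neuronal markers had the higher range of summed levels in pEGFR-Lo, with 4 differences below 0 and 2 above. Toward pEGFR-Lo, Snap25 (-0.82, limma adjusted p = 1.08e-06) and Gad1 (-0.52, limma adjusted p = 0.00252) had an adjusted p under 0.05. Slc17a7 and Gad2 had no group mean above background. The part of neuronal cells in the difference of Trim67 was not tested. Trim9, a netrin-linked ligase of axon branching, differed by -0.01 (limma adjusted p = 0.957) with values of 9.79 to 9.99 in pEGFR-Hi and 9.77 to 10.17 in pEGFR-Lo. Trim46, which organizes microtubules of the axon initial segment, differed by -0.07 and Trim36, which was not above background, by 0.12.

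Of the 18 measured members known from other tissues, 14 were not above background in either group, 0 were called with limma or SAM (Trim7, Trim66 and Trim71 had an unadjusted p under 0.05), and the median difference was -0.03. Apart from Trim71 and Trim66, the largest differences were those of Trim7, Trim72 and Trim29 toward pEGFR-Hi, at 0.30, 0.20 and 0.15, and of Trim40 toward pEGFR-Lo, at -0.15, none with an adjusted p under 0.05.

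Interferon-linked and constitutive members were then set against each other in each mouse. For each member the deviation of an array from the mean of that gene over all 12 arrays was taken, and the deviations were averaged over each group of members. With groups of equal size, the means of the lines are then equal and opposite by construction. The deviations compare mice and not the levels of different members. The interferon-linked mean was 0.44, 0.60 and 0.71 (lowest, median and highest) in pEGFR-Hi and -0.96, -0.54 and -0.31 in pEGFR-Lo. The constitutive mean was 0.08, 0.14 and 0.17 in pEGFR-Hi and -0.22, -0.13 and -0.06 in pEGFR-Lo. Both separated the lines, the interferon-linked members by 1.18 and the constitutive members by 0.27 on the log2 scale, so that the contrast between them was 0.91. This is a description with no test, since the members were chosen with results of these data known.

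**Figure D4:**
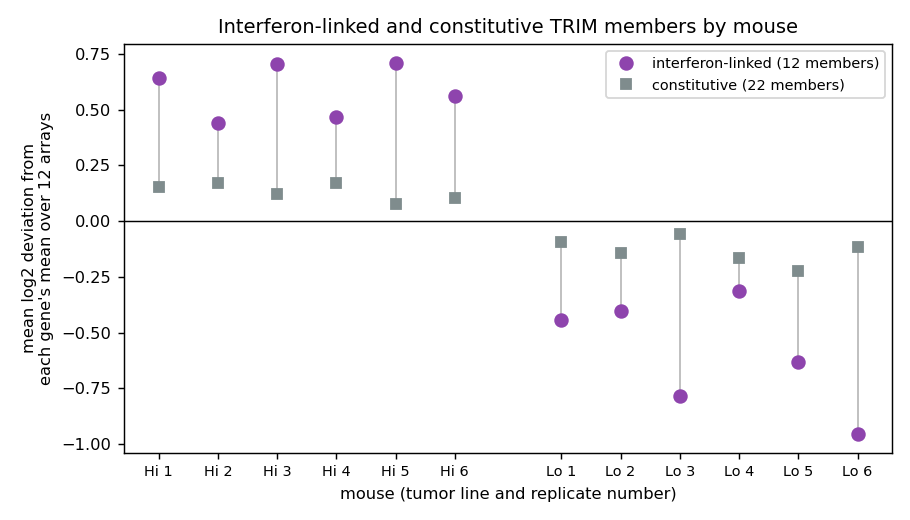
Mean log2 deviation from the mean of each gene over 12 arrays (y axis) for the 12 interferon-linked and the 22 constitutive members in each mouse (x axis), joined by a line. The interferon-linked mean exceeds the constitutive one in every pEGFR-Hi mouse and lies under it in every pEGFR-Lo mouse, with the widest gaps of that group in replicates 6 and 3. Deviations are centred per gene and do not compare levels.

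Within a mouse, the interferon-linked mean exceeded the constitutive one by 0.27 to 0.63 in pEGFR-Hi. In pEGFR-Lo the same difference was -0.84 in replicate 6, -0.73 in replicate 3 and -0.41 to -0.15 in the other 4 mice. Replicates 3 and 6 were the lowest pair of pEGFR-Lo in 4 of the 12 interferon-linked members, namely Trim30a, Trim12c, Trim21 and Trim26, and in 1 of the 22 constitutive members, Trim13, which was named after its values were seen. For Trim26 both lay at 5.74. The contrast of 0.91 became 0.75 without this pair, and it was 1.46 over the 7 interferon-linked and 22 constitutive members above background.

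**Figure D5:**
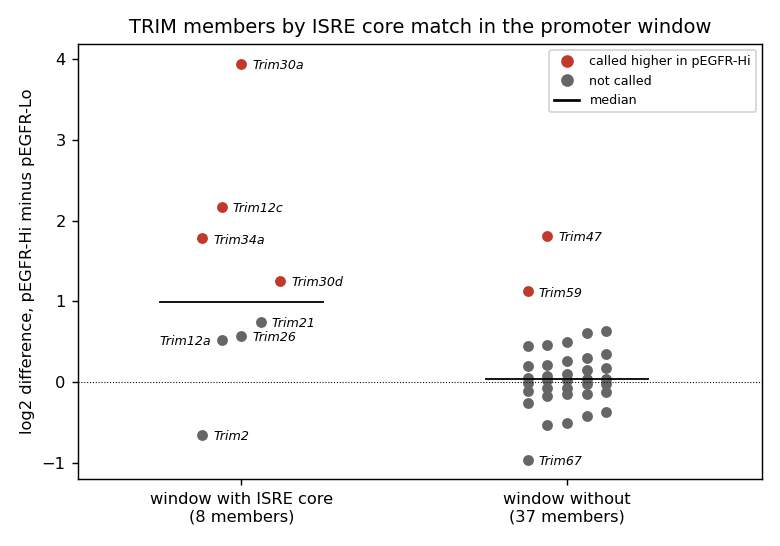
Difference between pEGFR-Hi and pEGFR-Lo on the log2 scale (y axis) of the 45 members with a promoter window, split by whether the window holds GAAANNGAAA (x axis), with called members in red and a bar at the median. The medians are 0.999 with and 0.04 without the letters, and Trim47 and Trim59 are the called members without them. Trim14, which was called, has no window and is not shown.

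The promoter letters shown at the outset were set beside these differences. Of the 8 members with the ISRE core, 4 were called and the median difference was 0.999. Of the 37 members without it, 2 were called and the median was 0.04. Trim14, the called interferon-linked member outside the cluster, had no window and was in neither group. Trim12a, Trim21, Trim26 and Trim2 held the letters and were not called. The 4 called members with the letters all belong to the cluster. Of these, the windows of Trim30a and Trim30d resemble each other (92.3% identical). Over all genes tested with a window, 6.26% of the 607 with the letters and 3.76% of the 15007 without them were higher in pEGFR-Hi, with medians of 0.01 for both. The letters TTCNNNGAA of the interferon gamma-activated site occurred in 5 of 45 members (11.1%) and in 9.55% of all genes with a window. Among interferon-stimulated genes with a window, 7 of 22 (31.8%) held them. A match describes the sequence and is not evidence that a factor binds there.

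Genes that work with TRIM proteins were read from further lists, beside the 3.99% of all genes called toward pEGFR-Hi and 5.06% toward pEGFR-Lo. Of 29 interferon-stimulated genes measured of 32 listed, 22 (75.9%) were called toward pEGFR-Hi and 0 toward pEGFR-Lo (0 also with SAM and at an unadjusted p under 0.05), with a median of 1.53. Without pEGFR-Lo replicates 3 and 6, 14 of the 29 were called and the median was 0.99. Among them Irf7, the master regulator of type I interferon, was 8.29-fold, the antiviral GTPase Mx2 10.7-fold, the RNA-sensing synthetase Oas2 5.37-fold and the tetherin gene Bst2 5.35-fold higher. Of 13 sensors and adaptors of the pathways that TRIM ligases tune, 5 (38.5%) were higher in pEGFR-Hi with a median of 0.41, among them the RNA sensors Dhx58 (6.40-fold) and Ifih1 (4.92-fold), the adaptor Myd88 (2.43-fold) and the transcription factor Irf3 (2.29-fold). Of 9 interferon receptor and kinase genes, 1 was called, the feedback inhibitor Socs3 (2.76-fold), with a median of 0.29.

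Of 9 ubiquitin-conjugating enzymes that serve TRIM ligases, 1 was called, Ube2l6, the conjugating enzyme of ISG15 (2.72-fold higher in pEGFR-Hi), and the median was -0.03. Ube2l6 was not called without pEGFR-Lo replicates 3 and 6. Of 9 partners of Trim28 in gene repression, 1 was called, the nuclear body ATPase Morc3 (2.57-fold higher in pEGFR-Hi), and the median was 0.01. In each of these lists of 9 the 1 called gene is 11.1%, a count on which no statement about the list rests. Of 7 TRIM proteins known by other names, 1 was called in each direction. Pml, which builds nuclear bodies and is induced by interferon, was at 8.35 ± 0.12 in pEGFR-Hi and 5.48 ± 0.24 in pEGFR-Lo (± SD over 6 mice), or 7.33-fold apart (limma adjusted p = 1.16e-11). Mid2, a microtubule-bound ligase, was at 6.20 ± 0.18 and 8.28 ± 0.21, a 4.22-fold difference toward pEGFR-Lo (limma adjusted p = 5.80e-10).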

How the data were processed

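RNA of sorted tumor cells was hybridized to 12 arrays, and the sample labels gave each array its group and number. The authors deposited log2 values, which Affymetrix Expression Console had produced with RMA (background correction, quantile normalization and a summary per probe set). Of 35556 probe sets, 21789 had 1 symbol, and the brightest per gene by mean over all arrays was kept. Each TRIM member had 1 probe set. The sources used here do not give the build behind the array, so promoter coordinates are RefSeq's. 1 family gene is not reported here.

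From these values limma 3.58.1 (lmFit, eBayes) was run in R 4.3.3 over all 19938 genes; sequences, counts and plots were made in Python 3.11.15 with pandas 2.3.3 and matplotlib 3.10.9. The study used SAM at the same limits, which was run here as an alternative with 100 permutations. Further alternatives were leaving out each array, quantile normalization run again, median centring, array weights, robust eBayes with a trend, a replicate block, genes above background, the mean of probe sets and a limit of 0.05 on the adjusted p whatever the fold. Leaving out pEGFR-Lo replicates 3 and 6 together was chosen after seeing the data. The code was checked on simulated arrays over 19938 genes, with normal noise of the same SD in both groups. There limma and SAM each called 100 of 100 genes raised by 1.5 in pEGFR-Hi on the log2 scale. They also called 100 of 100 lowered by 2, and 0 others. Neither unequal spread between groups nor differences near the 2-fold limit were simulated. The number of arrays limits the precision.

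Members and lists were chosen with earlier results of these data known, so lists are described by counts and medians with no test. Named were called members, all of the cluster, interferon-linked and neuronal lists, the 6 constitutive members with the highest mean log2 value (used to choose names, not to compare levels), the 3 largest differences each way of the constitutive and tissue lists, and up to 4 called genes of each further list. Trim3, Trim8, Trim13, Trim24, Trim30e-ps1, Olfr656 and the cell markers were named after their values were seen. Some list genes were not analysed here.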

Additional observations from a re-analysis of the deposited data

Results flagged for a closer look

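In 3 of the 72 groups of 6 mice checked, 1 mouse lay apart from the others of its group by most of the range of the group. Chance alone gives about 1 such mouse in 20 groups. In pEGFR-Hi replicate 5 the log2 value of Trim21 was 7.493, above the 6.93 to 7.09 of the other pEGFR-Hi mice. In the same mouse Trim67 was at 4.522, under the 5.01 to 5.17 of the others. In pEGFR-Hi replicate 3 Trim72 was at 3.783, above the 3.29 to 3.47 of the others and still below the background level.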

How the results depend on the processing

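The 7 calls toward pEGFR-Hi, all of them the same genes, were kept under SAM, a second quantile normalization, median centring, trend and robust eBayes, array weights, the mean of probe sets and each array left out. A filter on dim genes removed Trim30d before testing, which left 6. With an adjusted p under 0.05 and no fold limit, 20 members passed toward pEGFR-Hi and 7 toward pEGFR-Lo, 4 interferon-linked members at other loci and 14 constitutive members passed, and 50 genes of the further lists did, against 32 (24 with trend and robust eBayes and 23 without pEGFR-Lo replicates 3 and 6). With 1 array left out, 0 to 1 members were called toward pEGFR-Lo, and the 1 was Trim67 without pEGFR-Lo replicate 1 or 2. The contrast of interferon-linked and constitutive members, 0.91, was 0.83 to 0.97 with 1 array left out, 0.75 without pEGFR-Lo replicates 3 and 6, and 1.46 over members above background. The replicate numbers did not pair the mice (correlations of deviations between mice of the same number were -0.14 to 0.10, and 1 of 6 numbers correlated best with its own), and with the replicate block 7 members were called toward pEGFR-Hi and 0 toward pEGFR-Lo. No result changed direction under the alternatives run for these counts and the contrast. Members near background give differences that understate a change, and 6 mice of 1 line each cannot separate the line from its mice.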

Other observations

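Beside the probe sets paired with 1 TRIM symbol, 6 were paired with a TRIM symbol and at least 1 other, and they name no gene here. Of the 3 whose symbols include genes of the Trim30 cluster, 1 was at 6.09 ± 0.14 in pEGFR-Hi and 4.40 ± 0.77 in pEGFR-Lo on the log2 scale (SD, n = 6 mice each), a difference of 1.69. Another was at 7.17 ± 0.18 and 5.58 ± 0.64, a difference of 1.59. In both, all 6 pEGFR-Hi mice lay above all pEGFR-Lo mice, and the exact two-sided permutation test gave p = 0.00216, the smallest it can give here (0.00649 after Benjamini-Hochberg adjustment over the 6 probe sets). In both, pEGFR-Lo replicates 3 and 6 were the lowest mice, at 3.59 and 3.25 in the first and at 4.59 and 4.97 in the second. The third had a difference of -0.06 and the other 3 probe sets, away from the cluster, had differences of -0.10 to 0.01.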
